A study of Mus musculus with 13 samples.

Results

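Melanomas heterozygous for an inactivating mutation of ARF were compared with melanomas heterozygous for a mutation of INK4a. The members were chosen by genotype label alone: 5 tumors labelled ARF Heterozygous (tumors 8, 9, 12, 13 and 14) and 3 labelled Ink4a Heterozygous (tumors 5.2, 6.2 and 15), which are 8 of the 13 tumors of the series. The other tumors, 4 INK4a null and 1 ARF null, were left out of the comparison and used only to see where they lay at the same probe sets. Every tumor arose in the skin of a mouse carrying a transgene for hepatocyte growth factor/scatter factor (HGF/SF) driven by a metallothionein promoter, on a background of about 90% FVB/N and 10% C57BL/6, after 1 UV exposure at 3.5 days of age. The age of the mice at collection is not given in the labels. All 5 ARF heterozygous tumors have titles that name Ink4a, and the genotype labels were followed. The column names of the list of changed probe sets deposited by the authors place these tumors with ARF as well. No label ties a tumor to a mouse, and the p-values below therefore reflect only the variation among the 8 tumors, which may partly be technical.

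INK4a and ARF are tumor suppressors encoded at the same locus, Cdkn2a, in overlapping reading frames. INK4a binds the kinases CDK4 and CDK6 and keeps the retinoblastoma protein active, which holds cells in G1. ARF binds MDM2 and so stabilizes p53. HGF/SF activates the receptor MET on melanocytes. A heterozygous tumor carries a normal allele at its origin and may keep, lose or silence it. The comparison addresses whether tumors with an inherited lesion in either product differ in gene expression when neither lost both copies in the germ line.

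Each tumor's RNA was hybridized to 1 Affymetrix array. The deposited table holds log values of 22690 probe sets, each centred on its median over the 13 tumors, so a value of 0 means the middle tumor of the series and levels cannot be read. Whether the table holds every probe set of the array that the paper names was not checked. All probe sets, below, therefore means all those tested. Values were read as log2, since the base is not stated. The 64 Affymetrix control probe sets were set apart, which left 22626 for the test. No file used here links a probe set to a gene. Cdkn2a, Mcl1, Hgf and markers of melanocytes or other cell types are therefore not analysed here, and neither the genotype nor the tissue could be checked against its own transcripts. In whole tumors, fewer cells of a type and less RNA per cell cannot be told apart.

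The transcripts named by the control probe sets were examined first, since they show how the arrays differed before any other probe set is read. These probe sets lie near the 3' end, in the middle and near the 5' end of a transcript. Labelling starts at the 3' end, so a high 3' value relative to the 5' value is commonly taken as a sign of shortened RNA. Beta-actin, the main cytoskeletal actin of non-muscle cells, had a 3' minus 5' difference of 0.81, 1.49, -0.04, -0.36 and 1.09 in ARF heterozygous tumors 12, 13, 14, 8 and 9. In INK4a heterozygous tumors 15, 5.2 and 6.2 it was -0.39, -0.46 and -0.37. The groups did not overlap, but ARF heterozygous tumor 8 lay next to the INK4a tumors, and the size of the separation came from tumors 12, 13 and 9. The ARF heterozygous mean was 0.60 ± 0.78 (SD, n = 5) and the INK4a heterozygous mean -0.40 ± 0.05 (SD, n = 3). They differed by 1.0 (two-sided exact permutation test, p = 0.0357, the smallest p that 5 and 3 tumors can give, and 0.286 after Benjamini-Hochberg adjustment over 8 measures).

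Gapdh, an enzyme of glycolysis, was also highest in tumors 12, 13 and 9. Its 3' minus 5' difference was 0.38, 1.41 and 0.23 in ARF heterozygous tumors 12, 13 and 9, and ran from -0.63 to -0.49 in ARF heterozygous tumors 8 and 14. In the INK4a heterozygous tumors it ran from -0.74 to -0.55, so the groups overlapped (difference 0.81, exact permutation p = 0.107, adjusted 0.286). The transferrin receptor, which brings iron into cells, differed in this: tumor 13 had its lowest difference, -0.53, and tumor 8 its highest, 0.31 (exact permutation p = 0.286, adjusted 0.381). Since each probe set is centred, these differences rank tumors against one another and do not measure how intact any RNA was.

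**Figure D1:**
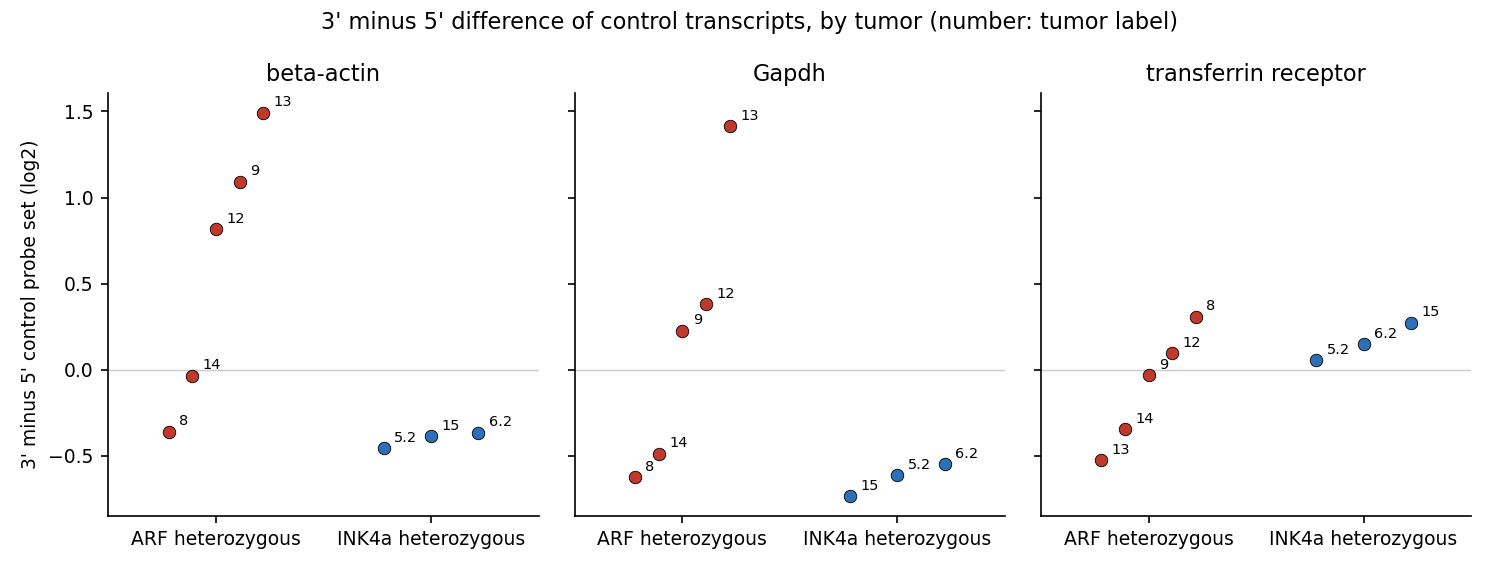
Each point is 1 tumor, marked with its label number and spread sideways for legibility; the vertical axis is the 3' minus the 5' control probe set on the log2 scale, for beta-actin, Gapdh and the transferrin receptor. For beta-actin, ARF heterozygous tumors 12, 9 and 13 sit between 0.81 and 1.49, and the 3 INK4a heterozygous tumors between -0.46 and -0.37.

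The beta-actin control probe sets themselves were lowest in ARF heterozygous tumors 12, 13 and 9 at each position. The middle probe set of beta-actin was lower in all 5 ARF heterozygous tumors (-2.38 to 0.06) than in the 3 INK4a heterozygous tumors (0.12 to 0.59). The means differed by -1.48 (exact permutation p = 0.0357, adjusted 0.343 over 16 control probe sets). Its 5' probe set differed by -1.74 and its 3' probe set by -0.73 (exact permutation p = 0.0714 for each, adjusted 0.343). Gapdh had a lower mean in ARF heterozygous tumors at all 3 positions, by -0.35 at the 3' end, -0.70 in the middle and -1.17 at the 5' end (exact permutation p of 0.179, 0.107 and 0.107). Its 3' probe set was lowest in ARF heterozygous tumor 14 (-0.49), with tumor 9 at 0.03. Gapdh thus did not single out tumors 12, 13 and 9 at every position. No probe set of 18S ribosomal RNA, pyruvate carboxylase or the transferrin receptor had an exact permutation p under 0.286. No control probe set passed the adjusted threshold of 0.05.

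Over the 22626 other probe sets, tumors of the same genotype did not resemble each other more than tumors of different genotype in any uniform way. Correlations of the centred values ran from -0.35 to 0.63 over the 10 pairs of ARF heterozygous tumors, with a median of -0.01, and from -0.43 to 0.41 over the 15 pairs of different genotype, with a median of -0.08. Among the ARF heterozygous tumors, 12, 13 and 9 correlated with each other at 0.41 to 0.63, and these are the 3 with the high beta-actin difference. Among the INK4a heterozygous tumors, 15 and 6.2 correlated at 0.72, whereas 5.2 correlated with them at -0.20 and -0.23 and had its highest correlation, 0.31, with ARF heterozygous tumor 8. Tumors 15 and 6.2 in turn correlated at 0.40 and 0.41 with ARF heterozygous tumor 12. These correlations are across probe sets, which are not independent, and describe the tumors only.

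The tumors also differed in how far they lay from the middle of the series. Tumor 14 had 63 probe sets more than 2 log2 units from 0, the fewest of the 8, and tumor 6.2 had 493, of which 436 were above. Tumor 12 had 377 above and 33 below. Tumor 8 had the opposite balance, with 100 above and 266 below, as did tumor 5.2 with 107 above and 189 below. Both directions were thus found within each genotype. The SD over probe sets was 0.48 ± 0.12 (SD, n = 5) in ARF heterozygous and 0.57 ± 0.08 (SD, n = 3) in INK4a heterozygous tumors (exact permutation p = 0.25, adjusted 0.381).

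The first principal component of the 8 tumors held 43.5% of the variance and did not follow genotype. INK4a heterozygous tumor 5.2 (80.4) and ARF heterozygous tumor 8 (69.3) lay at one end and ARF heterozygous tumor 12 (-61.0) at the other (exact permutation p = 0.821, adjusted 0.857). The second component held 22.2%. On it, ARF heterozygous tumors 12, 13, 14, 8 and 9 had 19.2, 48.6, 19.2, -9.19 and 27.7, and INK4a heterozygous tumors 15, 5.2 and 6.2 had -40.0, -3.92 and -61.6. Only ARF heterozygous tumor 8 reached into the range of the INK4a group, and the difference of the means, 56.3, had an exact permutation p of 0.0714 (adjusted 0.286). The tumor with the highest beta-actin difference, 13, was also the highest on this component.

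**Figure D2:**
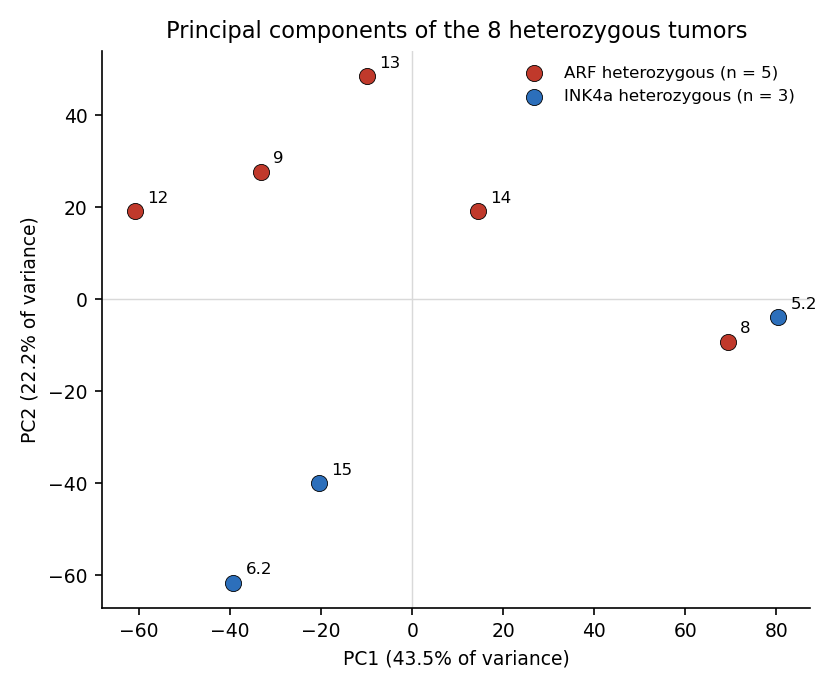
Scores of the 8 heterozygous tumors on the first (horizontal) and second (vertical) principal component of 22626 probe sets, with each tumor's label number. ARF heterozygous tumor 8 (69.3 on the first component) lies beside INK4a heterozygous tumor 5.2 (80.4), and the other 4 ARF heterozygous tumors lie above 19 on the second component.

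Of 22626 probe sets compared in limma between ARF heterozygous (n = 5) and INK4a heterozygous (n = 3) melanomas, 0 (0%) reached an adjusted p under 0.05. This count depended on how arrays were weighted: with weights estimated per array, 738 reached it, and 5674 had an unadjusted p under 0.05. The smallest adjusted p was 0.172, shared by 118 probe sets. At an unadjusted p under 0.05, 2785 probe sets differed, which is 12.3% of those tested. Of these, 1572 (6.95%) were higher and 1213 (5.36%) lower in ARF heterozygous tumors. An unadjusted p under 0.001 was reached by 125 probe sets, 71 higher and 54 lower. A difference had a median standard error of 0.18, and the number of arrays limits this precision.

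The probe sets that were lower in ARF heterozygous tumors had the larger differences. Among those with an unadjusted p under 0.05, the median difference was 0.53 for the higher and -0.74 for the lower ones. A size of at least 1 was reached by 138 of the higher and 361 of the lower ones. A size of at least 2 was reached by 8 of the higher and 27 of the lower ones. Over all probe sets regardless of p, 317 differed by at least 1 upward and 615 downward, with a median difference of 0.04 and extremes of 2.99 and -2.93. The balance of the counts depended on the scaling: after the median of each array was subtracted, 1413 were higher and 1397 lower. It shifted the other way, to fewer lower ones, in the fits given below that used the beta-actin difference.

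The groups did not overlap at 1777 probe sets (7.85% of all tested), 1138 higher (5.03%) and 639 lower (2.82%) in ARF heterozygous tumors, and 1513 of these also had an unadjusted p under 0.05 in limma. The exact Mann-Whitney test, which the methods of the paper name, gives p = 0.0357 for such a probe set, its smallest value with 5 and 3 tumors. It therefore counted the same 1777 at an unadjusted p under 0.05 and had no adjusted p under 0.455.

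The fit was repeated with the beta-actin difference taken into account, since its values were unlike in the groups (adjusted exact permutation p = 0.286). With that difference as a covariate, 1358 probe sets had an unadjusted p under 0.05, 866 higher and 492 lower in ARF heterozygous tumors. Of the 1358, 834 were among the 2785 with the same direction. A further fit used only the ARF heterozygous tumors whose difference was below 0, tumors 14 and 8, against the 3 INK4a heterozygous tumors. There the count was 1390, 921 higher and 469 lower, and 926 of the 1390 were among the 2785. The former fit has an added term and the latter only 5 arrays. How much of the lower counts goes with the added term or with the fewer arrays was not tested. Directions were nearly all kept: 2782 of the 2785 had the same sign with the covariate, and 2785 with tumors 14 and 8 alone. These signs are not an independent check, since the 2785 were chosen on the same 8 arrays. At 1513 of them the groups did not overlap, and there leaving out tumors cannot change the sign. What part of the 2785 goes with RNA quality, with beta-actin itself or with genotype cannot be told apart in 8 tumors.

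Single tumors carried much of the count. Leaving out ARF heterozygous tumor 8 raised it to 4098, and leaving out INK4a heterozygous tumor 6.2 or ARF heterozygous tumor 13 lowered it to 1880 and 1900. Without INK4a heterozygous tumor 5.2 the count was 2944, and 2 probe sets passed the adjusted threshold, both lower in ARF heterozygous tumors. In all 8 fits that each left out a tumor, 1009 of the 2785 kept an unadjusted p under 0.05 with the same direction, 582 higher and 427 lower.

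Probe sets are given by identifier only for the 2 of smallest p among the higher and the 2 among the lower ones. Probe set 1423106_at was higher in ARF heterozygous tumors, at 0.17, 0.10, 0.05, 0.18 and 0.00 in tumors 12, 13, 14, 8 and 9, against -0.79, -1.10 and -1.06 in INK4a heterozygous tumors 15, 5.2 and 6.2. All ARF heterozygous tumors lay close to the middle of the series and the 3 INK4a heterozygous tumors well below it. As each probe set is centred on the 13 tumors, 0 is not a reference level. Which group changed cannot be read from these positions. The difference was 1.08 (standard error 0.11, limma adjusted p = 0.172).

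Probe set 1450859_s_at had the same arrangement, with -0.05, 0.24, 0.27, -0.14 and 0.00 in ARF heterozygous tumors 12, 13, 14, 8 and 9 and -0.88, -0.93 and -1.03 in INK4a heterozygous tumors 15, 5.2 and 6.2. Its difference was 1.01 (standard error 0.13, limma adjusted p = 0.172). Again the ARF heterozygous tumors were scattered around 0 and the INK4a heterozygous tumors were not, which with centred values does not show which group changed.

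Probe set 1415976_a_at was lower in ARF heterozygous tumors, at 0.00, -0.33, -0.15, 0.02 and -0.52 in tumors 12, 13, 14, 8 and 9, against 1.04, 1.10 and 1.06 in INK4a heterozygous tumors 15, 5.2 and 6.2. The difference was -1.27 (standard error 0.14, limma adjusted p = 0.172). It was the 1 probe set past the adjusted threshold when all 13 tumors entered a fit with 4 genotype groups, where the adjusted p was 0.0467.

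Probe set 1425660_at was at -0.06, 0.00, -0.02, 0.23 and -0.13 in ARF heterozygous tumors 12, 13, 14, 8 and 9, and at 0.90, 0.92 and 0.92 in INK4a heterozygous tumors 15, 5.2 and 6.2. The INK4a heterozygous tumors were nearly alike (SD 0.01, n = 3), and the difference was -0.91 (standard error 0.10, limma adjusted p = 0.172). Choosing probe sets by smallest p favours such a small spread, and the INK4a null tumors had an SD of 0.85 (n = 4) here. With the beta-actin difference as a covariate, the differences were 1.11 at 1423106_at, 0.94 at 1450859_s_at, -1.07 at 1415976_a_at and -0.79 at 1425660_at. All 4 probe sets kept their direction in 17 other limma fits, which for groups that do not overlap is fixed wherever tumors are only left out.

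**Figure D3:**
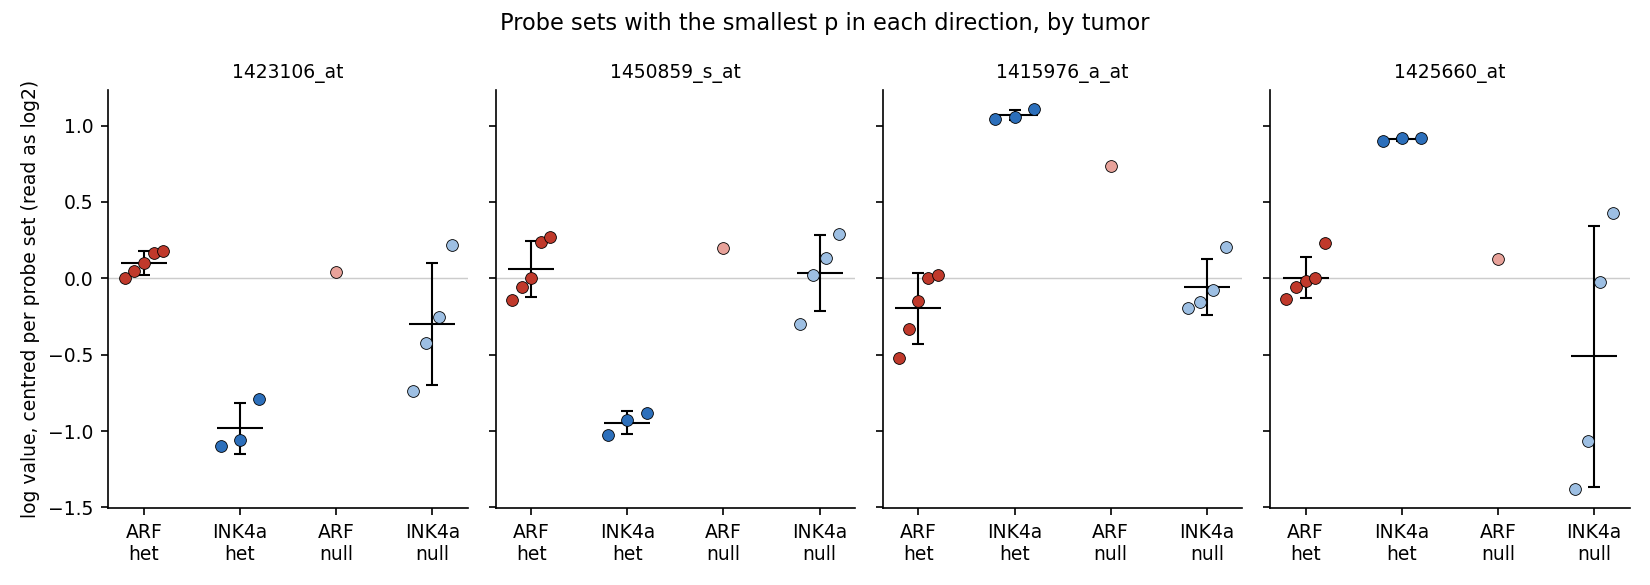
Centred log value (read as log2) of the 4 probe sets in each of the 13 tumors, by genotype; points are tumors, spread sideways for legibility, and bars give the mean and SD of groups with more than 1 tumor. The 3 INK4a heterozygous tumors stand near -1 or 1, and no ARF heterozygous tumor overlaps them in any of the 4 panels.

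The null tumors, which took no part in the choice of these probe sets, show whether the same differences were found with both copies mutated. At 1423106_at the INK4a null tumors had a mean of -0.30 ± 0.40 (SD, n = 4), between the heterozygous groups, and the ARF null tumor had 0.04. At 1450859_s_at they had 0.04 ± 0.25 (SD, n = 4) and the ARF null tumor 0.20. At both probe sets the ARF null tumor was thus above the INK4a null mean, the heterozygous order, though within the range of the INK4a null tumors. At 1415976_a_at the INK4a null tumors had -0.06 ± 0.18 (SD, n = 4) and the ARF null tumor 0.74, and at 1425660_at they had -0.51 ± 0.85 (SD, n = 4) and the ARF null tumor 0.13. At these 2 the order was the reverse of the heterozygous one, and at 1425660_at the ARF null tumor again lay within the range of the INK4a null tumors.

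Across the 2785 probe sets with an unadjusted p under 0.05, the difference of the ARF null tumor from the mean of the 4 INK4a null tumors had the heterozygous sign at 1118 (40.1%). Over all 22626 it had that sign at 10185 (45%). Among the 1572 higher probe sets the median difference was 0.53 in heterozygous and -0.05 in null tumors, and among the 1213 lower ones it was -0.74 and 0.06. Across all probe sets the heterozygous and the null difference, which share no tumor, had a Spearman rho of -0.12 and a Pearson r of -0.10. These values rest on a single ARF null tumor.

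**Figure D4:**
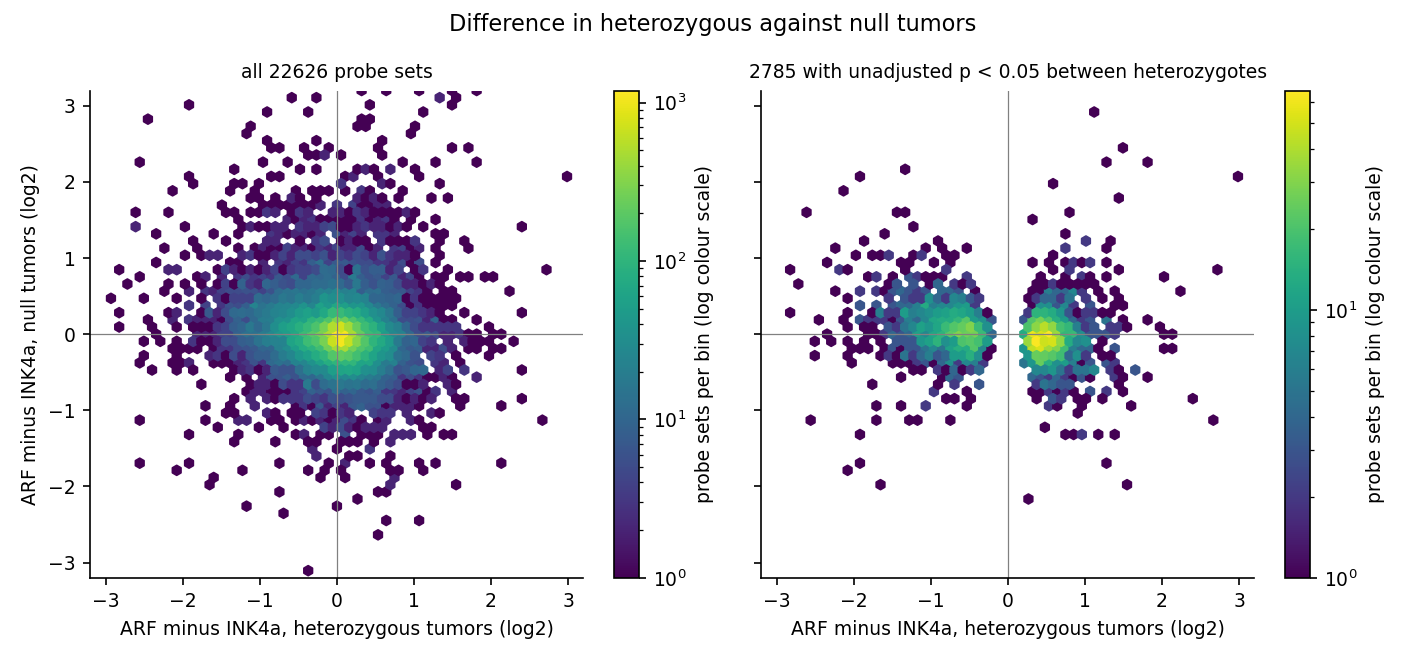
Difference of ARF minus INK4a in heterozygous (horizontal) and null (vertical) tumors on the log2 scale, for all 22626 probe sets and for the 2785 with an unadjusted p under 0.05 between heterozygous tumors; colour gives probe sets per bin on a log scale, and 23 probe sets lie outside the axes at left and 1 at right. Of the 2785, 40.1% had the same sign in both.

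The difference between the heterozygous and the null contrast was fitted in limma over all 13 tumors with 4 groups. The ARF null arm is 1 array, whose spread was assumed to be that of the other groups, so each call below rests on that array. The difference passed an adjusted p under 0.05 at 1 probe set (adjusted p = 0.0143) and an unadjusted p under 0.05 at 1200 (5.3%). The null contrast itself passed the adjusted threshold at 2 probe sets and an unadjusted p under 0.05 at 437 (1.93%). Of the 2785, 25 also had an unadjusted p under 0.05 in the null contrast with the same direction and 47 with the opposite direction.

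The endings of probe set identifiers, which Affymetrix assigned by how specifically the probes match transcripts, were compared as a feature independent of the tumors. An ending of _a_at marks probes common to several transcripts of a gene. Of 4040 such probe sets, 559 (13.8%) had an unadjusted p under 0.05, 212 higher and 347 lower in ARF heterozygous tumors, against 12.3% of all probe sets. Of 15605 with the plain ending _at, 1812 (11.6%) did, 1091 higher and 721 lower. The endings _s_at and _x_at mark probes that can match transcripts of other genes. Of 1469 and 1512 such probe sets, 224 (15.2%) and 190 (12.6%) had an unadjusted p under 0.05, of which 138 and 131 were higher. The shares lay near that of all probe sets. More _a_at probe sets were lower than higher in every limma fit of this comparison except those that used the beta-actin difference. After array medians were subtracted, 193 were higher and 402 lower, and without ARF heterozygous tumor 12 it was 252 and 270. With the beta-actin difference as a covariate 134 were higher and 126 lower, and with only ARF heterozygous tumors 14 and 8 it was 141 and 109. Why the balance turned in those fits was not tested. These counts are given as a description, as probe sets are not independent.

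The list of changed probe sets deposited by the authors, drawn up on all 13 tumors, holds 122 probe sets, of which 121 were tested here. Between the heterozygous tumors 48 had a higher and 73 a lower mean in ARF, and 93 (76.9%, against 12.3% of all probe sets) had an unadjusted p under 0.05, 38 higher and 55 lower. None passed the adjusted threshold. Their median size of difference was 0.65, against 0.18 over all probe sets, and 19 differed by at least 1. As the list was chosen for ARF against INK4a on samples that include these 8, its share is not independent evidence of a difference.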

How the data were processed

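Gene expression was measured on 1 Affymetrix array per melanoma. The authors used GeneSpringGX and deposited log values (read here as log2) of 22690 probe sets. Each of these has a median of 0 over the 13 arrays. The sources used here do not give how arrays were summarized and normalized, the log base or the signal over background. With another base the sizes of differences would scale, while the tests would stay as they are. The authors also deposited a signed score per array for 122 listed probe sets, of which only the identifiers and column names were used.

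The 64 control probe sets were set apart, and the other 22626 entered a two-sided test (lmFit with eBayes of limma 3.58.1, run under R 4.3.3, Benjamini-Hochberg threshold 0.05), ARF heterozygous minus INK4a heterozygous, on these 8 arrays without an expression filter, as centred values carry no level. No trend of the variance on the mean was fitted for the same reason. The script was tested on simulated data. For single measures, an exact permutation test ran through the 56 divisions of 8 tumors into 5 and 3. The Mann-Whitney test of the methods was computed exactly. Probe sets are named by a rule: the 2 of smallest p among the higher and the 2 among the lower ones. Gene symbols are not paired with identifiers in the files, so the gene lists, cell type markers and alternatives that need genes are not analysed here. The members and lists were chosen with earlier results of these data known. Alternatives covered the variance model, normalization, array weights, the arrays used, covariates and leaving out each array.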

Additional observations from a re-analysis of the deposited data

Results flagged for a closer look

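On the third principal component, ARF heterozygous tumor 8 stood at 55.0, well away from the next of the 5 ARF heterozygous tumors at 5.17. It was the 1 such case among 24 measures, and chance gives about 1 in 20. The heterozygous and the null difference between ARF and INK4a differed past an adjusted p of 0.05 in limma at 1 probe set, a call that rests on the single ARF null tumor, whose spread was assumed to be that of the other groups.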

How the results depend on the processing

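No probe set passed the adjusted threshold between heterozygous ARF and INK4a tumors, and 2785 had an unadjusted p under 0.05 in limma. With array weights these counts became 738 and 5674. The weights were 3.63 for INK4a heterozygous tumor 15 and 0.38 and 0.46 for ARF heterozygous tumor 8 and INK4a heterozygous tumor 5.2, and the cause of the shift was not tested. With all 13 arrays in 4 groups, 1 probe set passed. Decimal endings occur only in labels of INK4a tumors, never of ARF tumors, and their meaning is not given. The ending is thus partly tied to the contrast, and its share in any difference was not tested. A fit with tumor 15 as the only INK4a tumor also takes its spread from the ARF heterozygous tumors alone. At an unadjusted p under 0.05 the count was 1358 with the beta-actin difference as a covariate, 1110 with tumor 15, whose label has no decimal ending, as the only INK4a tumor, 1777 in the exact Mann-Whitney test and 1390 with only ARF heterozygous tumors 14 and 8, a fit added after seeing the data, as were the null contrasts and the counts by identifier ending under other settings. Leaving out each tumor gave 1880 to 4098 and 0 to 2 past the adjusted threshold, the 2 without INK4a heterozygous tumor 5.2, and the share of higher probe sets ran from 49.5% to 63.5%. The other alternatives (trend, robust variance, quantile normalization, array medians subtracted) gave 2653 to 2871 and none adjusted. Of the 2785, 2778 kept their sign in all 17 limma alternatives and 307 also their unadjusted p under 0.05. The kept signs are not an independent check, as the 2785 were chosen on arrays that the alternatives reuse. Covariates from keratinocyte and muscle genes, gene lists and means per gene were not run for want of gene names. No paired analysis was possible because the labels give the groups no shared replicate numbers.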
